A study of Mus musculus with 6 samples.

Results

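The genes described here encode the proteins of the cytosolic ribosome in islets of Langerhans from Ucn3 null and wild-type mice. They were chosen by name alone, as every gene symbol of the form Rpl or Rps followed by a number (with an optional a, x or l), together with Rpsa and the stalk genes Rplp0, Rplp1 and Rplp2. The pattern found 80 of the 21813 gene symbols with values, 32 of the small (40S) subunit and 48 of the large (60S) subunit. Islets came from 3 Ucn3 null males and 3 wild-type male littermates, all 3 months old, and each animal gave 1 library. The null animals lack urocortin 3, a peptide that beta cells release with insulin; neither the allele nor the strain is named in the labels. The tissue is labelled as isolated islets and the cells as mixed, although a sorting step appears in the RNA protocol; the samples are treated here as whole islets. Values are RPKM, the density of reads on a transcript scaled for its length and for library depth, so levels of different genes can be set side by side.

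A ribosome holds 1 copy of most of its proteins, bound to ribosomal RNA in a small subunit that reads the messenger RNA and a large subunit that joins amino acids. The genes are scattered over the genome, but their messenger RNAs are known for rising and falling together, and they begin with a stretch of C and T bases, the 5′ terminal oligopyrimidine (TOP) sequence, through which mTORC1 and the RNA-binding protein LARP1 set how well they are translated. Beta cells carry a heavy load of protein synthesis because they make insulin. Acinar cells, the enzyme-producing cells around islets, carry one as well.

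The start regions of these genes share letters that the choice by name did not use. RefSeq's promoter table for the build GRCm38.p6, which is not the build of the expression table (mm9), matched 59 of the 80 members, with 71 starts. The 30 bases around the start are shown for 5 members that are described below, from 10 bases before the first transcribed base to 20 bases from it onward, with the longest stretch of C and T that begins with C in capitals.
Rps6 (chr4:86857348-86857377, minus strand): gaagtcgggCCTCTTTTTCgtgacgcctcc
Rps27 (chr3:90213629-90213658, minus strand): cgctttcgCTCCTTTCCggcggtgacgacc
Rpl13a (chr7:45128726-45128755, minus strand): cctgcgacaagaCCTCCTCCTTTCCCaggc
Rpl35 (chr2:39005112-39005141, minus strand): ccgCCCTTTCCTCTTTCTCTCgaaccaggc
Rpl38 (chr11:114668570-114668599, plus strand): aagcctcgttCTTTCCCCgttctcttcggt
The stretches run for 10, 9, 14, 18 and 8 bases in this order and begin at or within 7 bases of the annotated start. The 5 were taken from member starts where a stretch of at least 8 bases begins close to the start. Their nearness to it was thus set by the choice and is no measure of the other members. A stretch of at least 8 such bases, from 50 bases before to 50 bases after the start on the coding strand, was present in 80.3% of the 71 member starts and in 28.8% of all 32851 starts in the table. The ETS core CCGGAAG, searched on both strands of the 300 bases, was present in 36.6% of member starts and in 8.86% of all starts; its reverse strand can overlap a C and T stretch. The SP1 box GGGCGG was present in 57.7% against 35.7%, the YY1 core AAGATGG in 15.5% against 6.34%, and the E-box CACGTG in 11.3% against 7.15%. The TATA box TATAAA was less frequent in member starts, at 8.45% against 13.6%. These are matches of letters, and binding was not measured.

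Ribosomal protein transcripts were abundant in every library. Of the 80 members, 78 averaged at least 1 RPKM over the 6 libraries and were tested. Their median level was 104 RPKM, with the middle of the distribution between 76.2 and 149 RPKM. The median was 121 RPKM for 40S members and 99.9 RPKM for 60S members. Summed over all 80, they made up 2.09%, 2.04% and 1.92% of all RPKM in wild type libraries 1 to 3, and 1.77%, 1.71% and 1.94% in null libraries 1 to 3. Null replicate 3 lay inside the wild-type range and the other null libraries lay below it. The 40S genes held between 41.7% and 42.3% of the members' RPKM in each library, so the balance between subunits differed little from animal to animal. Between any 2 libraries the levels of the 78 members had a Pearson correlation of 0.995 to 0.998 across genes, which are not independent replicates and share library depth and transcript length.

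The highest member was Rpl41, which encodes the shortest ribosomal protein, at 482, 560 and 480 RPKM in wild-type libraries and 407, 410 and 432 RPKM in null libraries. Next came Rplp1, a protein of the stalk that recruits translation factors, at 377, 413 and 375 RPKM in wild-type libraries and 324, 293 and 311 RPKM in null libraries. For both genes all null libraries lay below all wild-type libraries. Rpl10, a late-joining protein near the catalytic centre, followed at 305, 328 and 295 RPKM in wild-type libraries and 281, 259 and 296 RPKM in null libraries. Rpl4, a protein of the exit tunnel wall, stood at 239, 248 and 232 RPKM against 214, 218 and 237 RPKM, and Rps3a at 220, 211 and 204 RPKM against 186, 180 and 208 RPKM. In Rpl10, Rpl4 and Rps3a null replicate 3 reached into the wild-type range.

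At the other end stood Rps15a at 8.64 RPKM, Rpl21 at 10.46 RPKM and Rpl22 at 18.1 RPKM, averaged over the 6 libraries. Rps15a held 10.2, 9.27 and 8.73 RPKM in wild-type libraries and 7.62, 7.41 and 8.65 RPKM in null libraries. Rpl21 held 10.9, 12 and 11 RPKM in wild-type libraries and 9.31, 8.70 and 10.9 RPKM in null libraries. The groups did not overlap for either gene, narrowly so for Rpl21. The highest tested member stood 53.5 times above the lowest, although the ribosome takes most of these proteins in equal numbers.

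**Figure D1:**
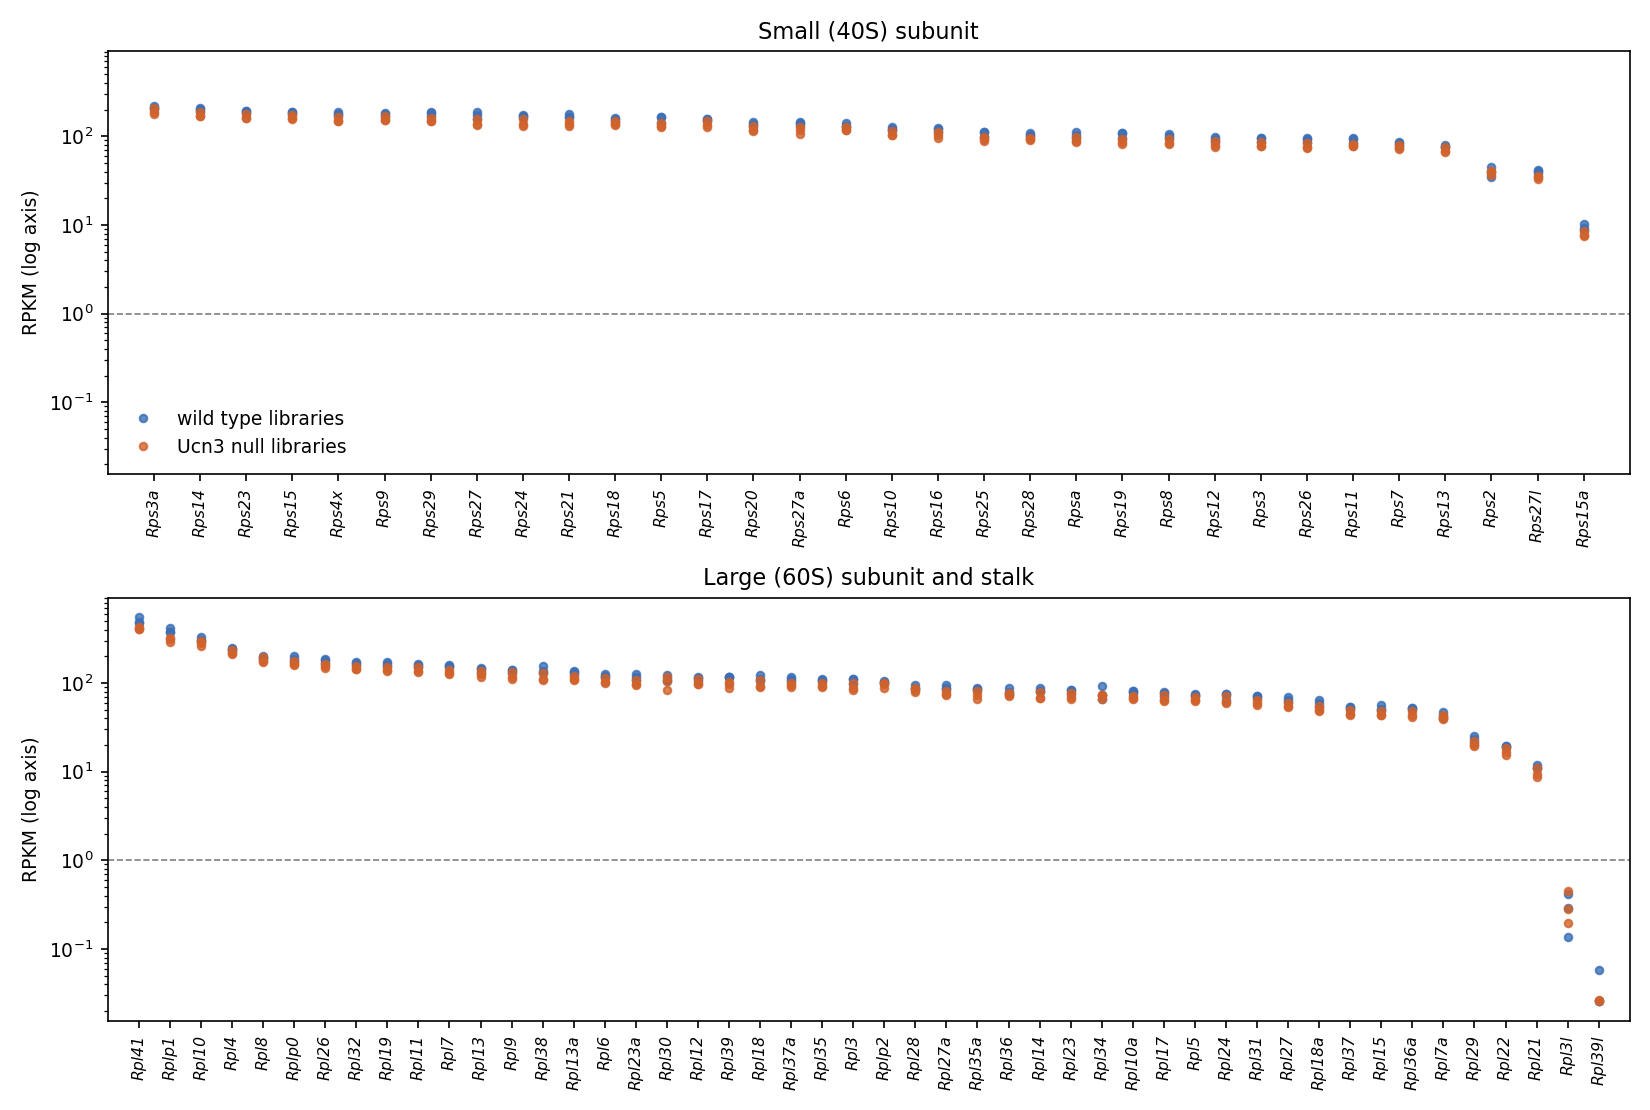
RPKM (log axis) of each 40S member (upper panel) and 60S member (lower panel), ordered by mean level, with 1 point per library, blue for wild type and orange for Ucn3 null. The dashed line marks the 1 RPKM filter. Most members lie near 100 RPKM, Rpl3l and Rpl39l lie below the filter, and 1 null library of Rpl39l at 0 is not drawn.

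Ribosomal protein genes have many near-identical copies in the genome, mostly processed pseudogenes, and the sources used here do not say how the authors counted reads that match several copies. In GENCODE M21, 77 of the 80 members had at least one 50-base stretch of coding sequence that also occurs in another annotated gene, and in 29 members every such stretch did. The median member shared stretches with 9 other genes. The 5 members that shared with at least 50 genes were Rpl7a with 120, Rpl21 and Rpl29 with 82 each, Rps2 with 71 and Rpl17 with 51. By mean level these ranked 72, 77, 75, 73 and 63 of 80. Rps15a and Rpl22, which were also low, shared with 9 and 4 genes. Across the 78 tested members Spearman's rho between level and the number of sharing genes was -0.28, a description over genes with a common source. The part of shared reads in these levels was not tested, and each member's level is uncertain to that extent.

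The table also lists copies under names of their own. Rps15a-ps4 and Rps15a-ps6 averaged 35.7 and 37.8 RPKM, above Rps15a itself. Rpl31-ps12 averaged 141 RPKM against 65.5 RPKM for Rpl31. Others lay below their parents: Rplp2-ps1 averaged 68.1 RPKM against 98.8 RPKM for Rplp2, and Rps19-ps3 44.5 RPKM against 95.9 RPKM for Rps19. Rpl34-ps1 held 115, 92.3 and 84.2 RPKM in wild-type libraries and 92.0, 93.1 and 84.9 RPKM in null libraries, with the same high value in wild type replicate 1 that Rpl34 shows. These rows cannot be told apart from their parents where reads are shared, and they are not counted as members.

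**Figure D2:**
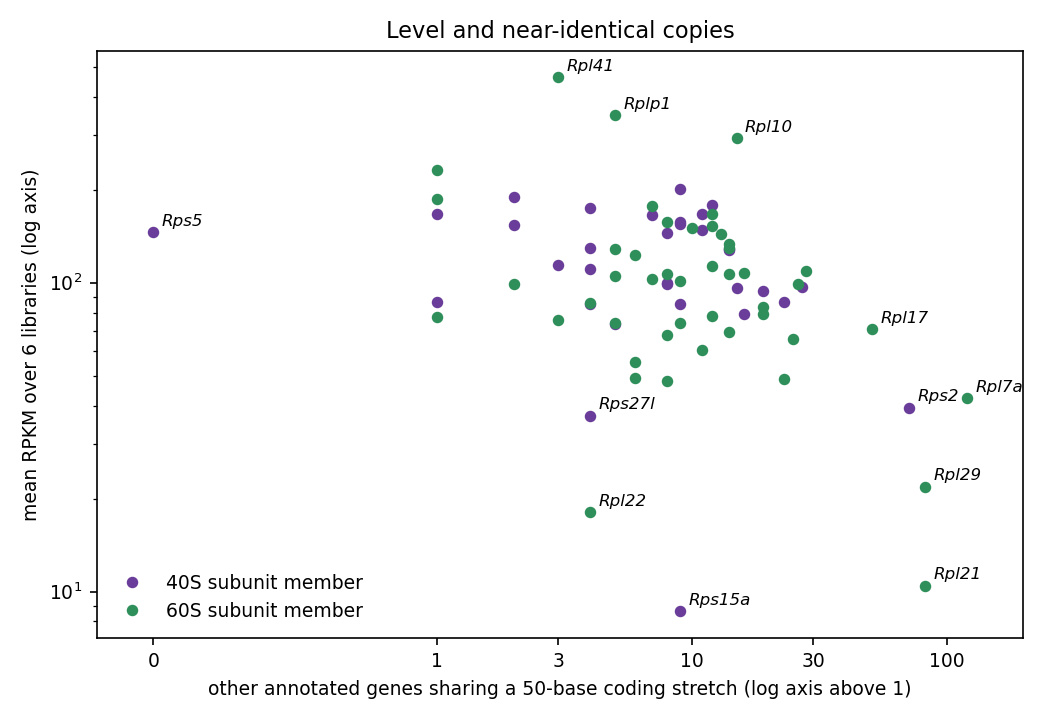
Mean RPKM over 6 libraries (log axis) of the 78 tested members against the number of other annotated genes that share a 50-base coding stretch with them (log axis above 1), coloured by subunit. Rpl7a, Rpl21, Rpl29, Rps2 and Rpl17, at 51 to 120 sharing genes, lie at 10.46 to 70.9 RPKM.

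Tissue-restricted paralogs were close to absent. Rpl3l, the form known from skeletal muscle and heart, held 0.14, 0.29 and 0.42 RPKM in wild-type libraries and 0.28, 0.20 and 0.46 RPKM in null libraries, against 107 ± 8.18 and 91.2 ± 8.16 RPKM (SD, n = 3 each) for Rpl3. Rpl39l, a form known from testis, held 0.058, 0.026 and 0.026 RPKM in wild-type libraries and 0, 0.026 and 0.027 RPKM in null libraries, against 117 ± 1.0 and 95.9 ± 6.55 RPKM (SD, n = 3 each) for Rpl39. Both averaged under 1 RPKM and were not tested, and neither shares a 50-base coding stretch with another gene. No other member averaged below 1 RPKM.

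Other paralogs were well expressed. Rps27l, known as a target of p53, held 38.2, 40.4 and 41.5 RPKM in wild-type libraries and 32.7, 35.3 and 34.4 RPKM in null libraries, with no overlap. Its paralog Rps27, a zinc finger protein of the small subunit, held 186, 174 and 157 RPKM in wild-type libraries and 132, 138 and 157 RPKM in null libraries. Rps27 stood 4.30 times above Rps27l in wild-type and 4.16 times in null islets. Rpl22l1, which is not a member by name, averaged 82.9 RPKM and stood above its paralog Rpl22 in each of the 6 libraries.

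The comparison of null with wild-type islets asked whether loss of Ucn3 goes with another level of these transcripts. All 78 tested members had a lower mean of log2(RPKM + 1) in null islets, where 61.7% of the 12652 genes tested had a difference below 0. The median difference was -0.20 on the log2(RPKM + 1) scale (40S members -0.20, 60S members -0.19), against -0.03 over all genes tested. As a change in mean RPKM the median was -12.7%, with a range from -20.4% in Rplp1 to -2.83% in Rps2. No member passed an adjusted p of 0.05 in limma, whose smallest adjusted p among members was 0.49, and 0.0158% of all genes passed. At an unadjusted p under 0.05 limma counted 33 members as lower and 0 as higher, against 7.90% and 1.46% of all genes tested. All null libraries lay below all wild-type libraries in 47 members and above them in 0, against 13.2% and 1.90% of all genes tested. The values of members move together, so these counts are not independent pieces of evidence.

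The count of 33 rested on which animals were included. Without null replicate 1 it was 4 of 78 (5.13%), without null replicate 2 it was 2 (2.56%) and without wild type replicate 2 it was 3 (3.85%), where 5.22%, 2.79% and 3.87% of all genes were lower, so in these fits the members were called about as often as any gene. Without null replicate 3 it was 56 (71.8%, against 9.15% of all genes), without wild type replicate 1 it was 10 (12.8%, against 9.22%) and without wild type replicate 3 it was 27 (34.6%, against 6.02%). The median difference lay between -0.24 and -0.16 with 1 library left out. Between 76 and 78 members stayed negative, where 52.6% to 72.2% of all genes were negative.

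**Figure D3:**
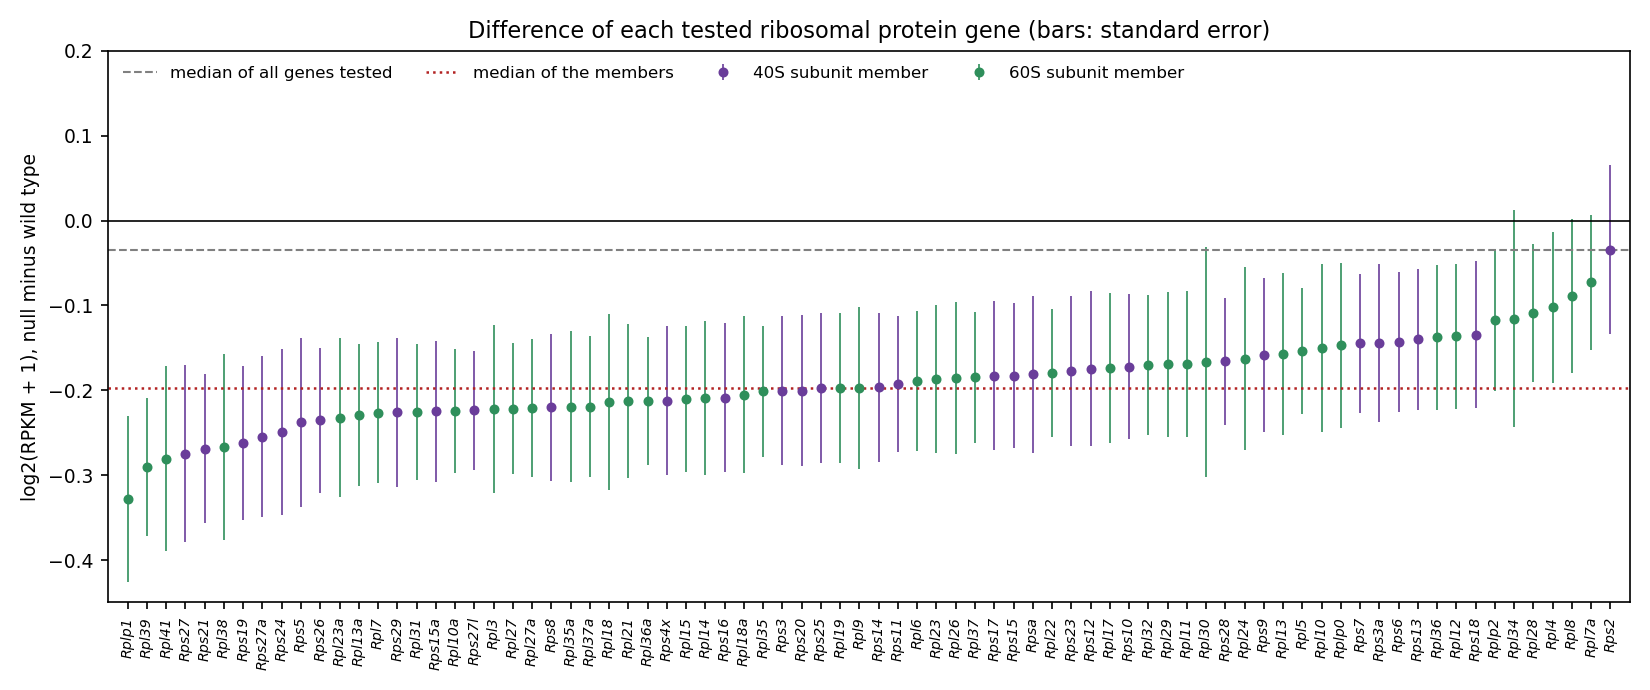
Null minus wild-type difference in log2(RPKM + 1) for the 78 tested members, in order of size, with limma standard errors as bars and colour by subunit. Every point lies below 0, from -0.33 for Rplp1 to -0.03 for Rps2, and the dotted line (members, -0.20) lies below the dashed line (all genes tested, -0.03).

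The 5 members with the smallest p came from both subunits. Rpl39, a small protein of the exit tunnel, held 116, 118 and 117 RPKM in wild-type libraries and 97.1, 88.8 and 102 RPKM in null libraries (log2 difference -0.29, SE 0.08, limma adjusted p = 0.49). Rplp1 had a log2 difference of -0.33 (SE 0.10) and Rps27l one of -0.22 (SE 0.07). Neither overlapped between groups. Rpl10a, a protein of the L1 stalk at the exit side, held 80.6, 81.7 and 77.7 RPKM in wild-type libraries and 65.5, 67.8 and 71.8 RPKM in null libraries. Rps21 held 164, 177 and 163 RPKM in wild-type libraries and 138, 131 and 149 RPKM in null libraries. The limma adjusted p of Rplp1, Rps27l, Rpl10a and Rps21 was 0.49 as well, and for each of the 5 genes the 3 null animals lay below the 3 wild-type animals. The 5 were picked by p in this same comparison, so that order largely follows from the choice and adds no support. It was seen in 47 of the 78 tested members and in 13.2% of all genes tested.

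The stalk proteins spanned a range of differences. Rplp0, the base of the stalk and a common reference gene in quantitative PCR, held 184, 201 and 171 RPKM in wild-type libraries and 160, 164 and 179 RPKM in null libraries, with overlap (log2 difference -0.15, SE 0.10). Rplp2 had a log2 difference of -0.12 (SE 0.08). Rplp1, their partner, had the most negative difference of all tested members, and whether it differs from the other stalk genes was not tested.

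Proteins of the 5S particle, Rpl5 and Rpl11, carry 5S RNA into the large subunit and bind Mdm2 when assembly is disturbed. Rpl5 held 74.5, 73.1 and 71.5 RPKM in wild-type libraries and 63.7, 63.4 and 69.8 RPKM in null libraries (log2 difference -0.15, SE 0.07). Rpl11 held 163, 160 and 154 RPKM in wild-type libraries and 137, 135 and 153 RPKM in null libraries (log2 difference -0.17, SE 0.09). For both, null replicate 3 lay just under the lowest wild-type library. Mdm2 stood at 11.5 ± 1.05 RPKM in wild-type libraries and 11.6 ± 0.63 RPKM in null libraries (SD, n = 3 each), and Cdkn1a, a p53 target, at 8.87 ± 3.26 and 9.83 ± 2.90 RPKM (SD, n = 3 each), with overlap in both.

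Among the members known for other roles, Rps6, the substrate of S6 kinase, held 132, 141 and 128 RPKM in wild-type libraries and 119, 116 and 128 RPKM in null libraries (log2 difference -0.14, SE 0.08). Rps19, the gene most often mutated in Diamond-Blackfan anaemia, held 109, 109 and 95.7 RPKM in wild-type libraries and 86.0, 82.4 and 93.1 RPKM in null libraries (log2 difference -0.26, SE 0.09). In both genes the groups lay apart by little. Rpl13a, another common reference gene, held 134, 137 and 127 RPKM in wild-type libraries and 108, 110 and 121 RPKM in null libraries (log2 difference -0.23, SE 0.08). Rpl38, needed for translation of Hox messenger RNAs in the mouse embryo, held 138, 154 and 129 RPKM in wild-type libraries and 107, 112 and 130 RPKM in null libraries (log2 difference -0.27, SE 0.11). Its highest null library lay above its lowest wild-type library. Rps4x, an X-linked gene of the small subunit, held 180, 186 and 173 RPKM in wild-type libraries and 150, 148 and 167 RPKM in null libraries.

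Members differed in how widely animals of a group varied. Rpl30, Rpl34 and Rpl24 had the largest residual SDs on the log2 scale, 0.20, 0.18 and 0.14. Rpl34 held 93.1, 73.7 and 66.1 RPKM in wild-type libraries and 73.0, 72.9 and 66.7 RPKM in null libraries, so that wild type replicate 1 alone set its direction: without that library its log2 difference was 0.021 (SE 0.09). Rpl30 held 124, 110 and 106 RPKM in wild-type libraries and 105, 82.8 and 117 RPKM in null libraries. Rps28, Rpl10a and Rpl35 had the smallest, 0.05, 0.05 and 0.06. Rps28 held 104, 109 and 102 RPKM in wild-type libraries and 92.3, 90.9 and 96.7 RPKM in null libraries, and Rpl35 held 109, 111 and 104 RPKM against 92.1, 90.4 and 99.1 RPKM, both with no overlap.

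The differences of the 78 members had an SD of 0.05 between genes. The standard error of a single gene, with a median of 0.09, also holds variation between animals that the members share, so it is no measure of how alike the members are. The members nearest to 0, named here after their values were seen, were Rps2 at -0.03 (SE 0.10), Rpl7a at -0.07 (SE 0.08) and Rpl8 at -0.09 (SE 0.09). Rps2 and Rpl7a are 2 of the members with the most annotated copies, and Rpl8 shares coding stretches with 1 other gene.

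The other genes of translation were described by lists. The 7 tested ribosomal protein genes outside the name pattern all had negative differences (median -0.21), and 3 had an unadjusted p under 0.05 in limma: Rpl22l1 (-0.31, SE 0.11), Fau (-0.26, SE 0.10) and Rpl7l1 (-0.16, SE 0.06). Over all genes tested, 61.7% had a difference below 0 and 7.90% were lower at that threshold. Fau encodes a ubiquitin-like protein fused to a 40S protein, and held 107, 114 and 96.4 RPKM in wild-type libraries and 83.3, 86.2 and 95.4 RPKM in null libraries. All null libraries of Fau lay below all wild-type libraries.

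Initiation factors had a median difference of -0.07, with 33 of 36 negative and 3 (8.33%) lower at an unadjusted p under 0.05, a share near the 7.90% of all genes. The lowest p belonged to Eif6, which keeps free 60S subunits from joining 40S subunits, at 11.6, 13.0 and 12 RPKM in wild-type libraries and 9.42, 10.1 and 10.4 RPKM in null libraries (log2 difference -0.27, SE 0.07, limma adjusted p = 0.49). Elongation and termination factors had a median of -0.09, with 12 of 13 negative and 1 (7.69%, also near that of all genes) lower, Etf1 at -0.14 (SE 0.06). Eef2, the exception, held 206, 195 and 194 RPKM in wild-type libraries and 197, 218 and 226 RPKM in null libraries, with overlap. A list of other TOP messenger RNAs, 22 genes, overlaps both factor lists and also holds Fau, which was counted above. Its median was -0.13, with 20 negative and 3 (13.6%) lower: Btf3 (-0.23, SE 0.08), Naca (-0.21, SE 0.08) and Fau. No gene of these lists passed the adjusted threshold in limma or was higher at an unadjusted p under 0.05.

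Genes that make or control ribosomes were described in the same way, and no difference between lists was tested. Assembly factors had a median of -0.07 over 65 genes, 53 of them negative and 5 (7.69%, against 7.90% of all genes) lower at an unadjusted p under 0.05, among them Nop10, a subunit of the RNA-pseudouridylating particle, at 19.5, 24.1 and 24.2 RPKM in wild-type libraries and 16.4, 18.0 and 18.2 RPKM in null libraries. RNA polymerase I and 5S transcription genes had a median of -0.05 over 17 genes with 1 (5.88%) lower, Polr1d (-0.21, SE 0.08). The mTORC1 and TOP control list had a median of 0.01 over 29 genes, 14 of them negative, and 1 (3.45%) lower, Cnbp (-0.20, SE 0.07). In these 3 lists genes were called lower no more often than over the whole table, and the single genes are given for their values only. Mtor held 4.96, 4.21 and 4.93 RPKM in wild-type libraries and 4.54, 5.87 and 6.37 RPKM in null libraries, and Larp1 held 10.4, 11 and 12 RPKM in wild-type libraries and 11.1, 12.8 and 13.5 RPKM in null libraries. Both overlapped. Nucleolar stress and ribosome quality control genes had a median of -0.004 over 16 genes, with 0 at an unadjusted p under 0.05 and a smallest limma adjusted p of 0.67. Hosts of small nucleolar RNAs had a median of -0.11 over 10 genes, all negative, with Snhg5 (-0.25, SE 0.09) and Gas5 (-0.21, SE 0.09) lower at an unadjusted p under 0.05 (2 genes, 20%).

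The sets most like the cytosolic ribosomal proteins lay lower as well. Mitochondrial ribosomal protein genes had a median difference of -0.13, with 66 of 73 negative and 20 (27.4%) lower at an unadjusted p under 0.05. Proteasome subunit genes had a median of -0.15, with 37 of 37 negative and 8 (21.6%) lower. Over all genes tested, 61.7% were negative and 7.90% lower. None was higher at an unadjusted p under 0.05 in either set and none passed the adjusted threshold in limma. The 3 sets were not tested against each other, and the mitochondrial and proteasome counts were not followed through the other fits.

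By library, the members' median deviation from each gene's own mean over the 6 libraries was 0.11, 0.15 and 0.02 in wild type libraries 1 to 3 and -0.14, -0.15 and 0.01 in null libraries 1 to 3. Null replicates 1 and 2 were both below all wild-type libraries in 76 of 78 members, and null replicate 3 was the highest null library in 74. Wild type replicate 3 was the lowest wild-type library in 71. The shares of all genes with these orders were not counted. Over all genes tested the median deviation was 0.03, -0.01 and 0.04 in wild type libraries 1 to 3. It was -0.07, -0.04 and 0.05 in null libraries 1 to 3, so null replicate 3 was the highest null library there too. Mitochondrial ribosomal protein genes deviated by -0.02, 0.12 and 0.11 in wild type and by -0.13, -0.08 and 0.00 in null islets, so wild type replicate 1 was high for the cytosolic set and not for the mitochondrial one.

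Markers of acinar cells differed between the same libraries. Of 36 genes on the list 35 were tested, 34 of them higher in null islets at an unadjusted p under 0.05, 0 lower, and 0 past the adjusted threshold in limma. Over all genes tested, 1.46% were higher and 7.90% lower. All null libraries lay above all wild-type libraries in 6 of the 35, against 1.90% of all genes tested. The list held 2.01%, 0.159% and 0.756% of all RPKM in wild type libraries 1 to 3 and 7.48%, 4.19% and 1.51% in null libraries 1 to 3, summed levels of 788 to 9456 RPKM in wild-type libraries and 7075 to 34878 RPKM in null libraries. No listed marker was at 0 in all libraries. The null library with the fewest acinar transcripts, replicate 3, had the highest ribosomal protein levels of its group, while wild type replicate 1, with the most acinar transcripts of its group, lay above wild type replicate 3. When the acinar mean entered the model as a covariate, the members' median difference was -0.11. Of the 78, 75 were negative (all but Rpl28, Rpl7a and Rpl8), against 56.2% of all genes. Members at an unadjusted p under 0.05 numbered 0, where 2.63% of all genes were lower. The acinar mean was itself higher in null islets on average. With 6 libraries, this fit cannot divide the difference between acinar content and genotype. With RPKM rescaled to equal totals outside the acinar list the median was -0.11 against 0.04 over all genes. There 76 of 78 were negative (all but Rpl7a and Rps2), against 36.7% of all genes, and 4 were lower, against 2.27%. Under that scaling 287 genes were lower and 594 higher over the whole table, where the values as deposited gave 999 and 185. With totals made equal outside both the acinar list and the hormone genes, a scaling added after seeing the data, the median was -0.18 against -0.02 over all genes. There 78 of 78 were negative, against 55.9% of all genes, and 31 were lower, against 6.48%. That scaling gave 820 lower and 246 higher genes over the whole table, so the members' values under it lay near those from the RPKM as deposited. In bulk islets, fewer cells of a type and less RNA per cell cannot be told apart.

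Of 7 tested delta cell markers 6 had negative differences, 5 were lower and 1 was higher at an unadjusted p under 0.05, and 0 passed the adjusted threshold in limma (smallest adjusted p = 0.067), with summed levels of 1809 to 2471 RPKM in wild-type libraries and 745 to 1149 RPKM in null libraries. The median deviation of these markers was -0.26, -0.38 and -0.23 in null libraries 1 to 3, low in each of them, where that of the ribosomal protein genes was near 0 in the third. Ductal markers had a median difference of -0.38, with 13 of 14 negative, 7 (50%) lower and 1 higher at an unadjusted p under 0.05. Over all genes tested, 7.90% were lower and 1.46% higher at that threshold, and 61.7% had a difference below 0. None of the ductal markers passed the adjusted threshold in limma. Beta cell markers summed to 247263 to 285928 RPKM in wild-type libraries and 230518 to 255071 RPKM in null libraries, the highest sums of any marker list, and 6 of 10 were negative, 1 of them Ucn3 itself. Nkx6-1, a beta cell transcription factor named here after its values were seen, was higher in all null than in all wild-type libraries (log2 difference 0.27, SE 0.09, limma adjusted p = 0.49). The part of cell makeup in the ribosomal protein difference was not tested, and the fits with the acinar list do not measure it.

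**Figure D4:**
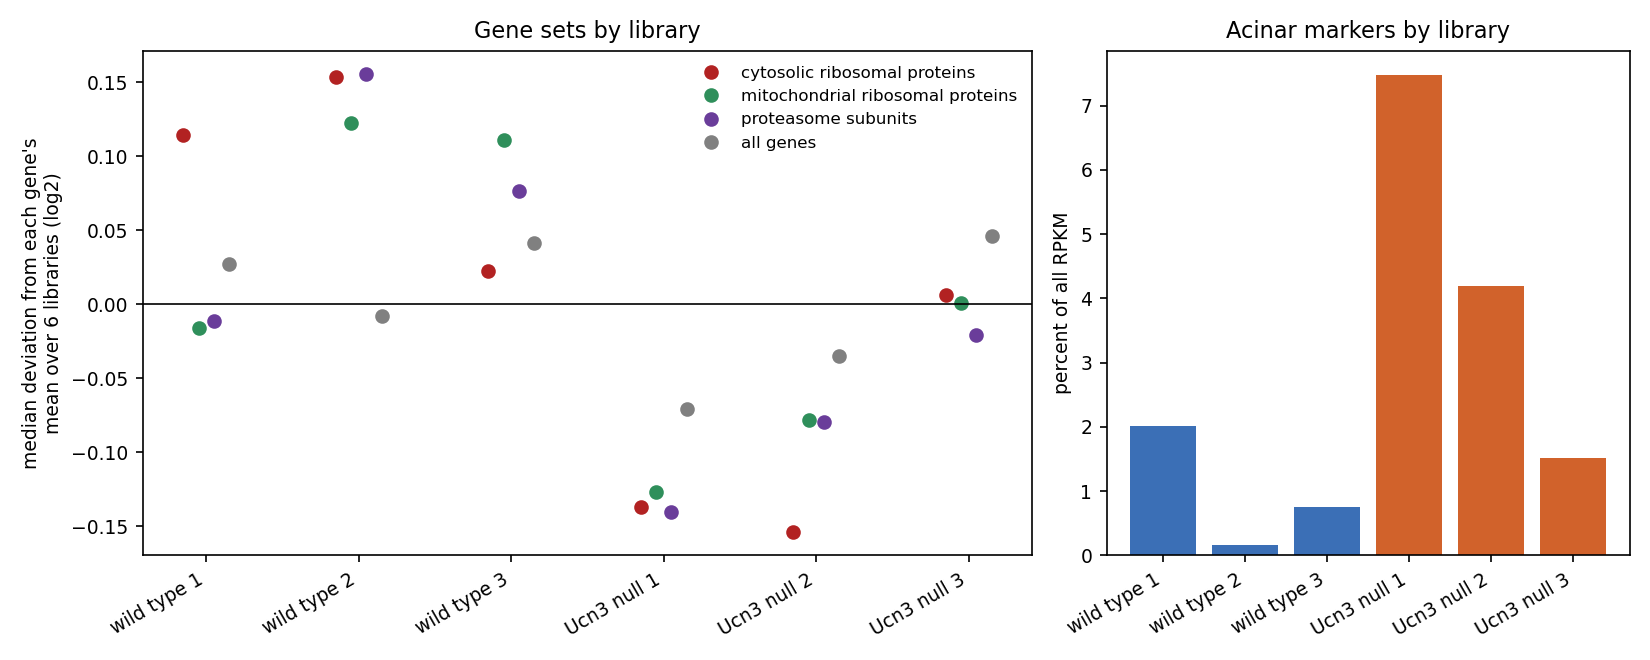
Left, the median deviation of each gene set from its genes' own means over the 6 libraries (log2(RPKM + 1)), by library. Right, the acinar marker list as a percent of all RPKM. Ribosomal protein genes are lowest in null replicates 1 and 2, where the acinar list holds 7.48% and 4.19% of all RPKM, and near 0 in null replicate 3, where it holds 1.51%. They lie at 0.11, 0.15 and 0.02 in wild type replicates 1 to 3, where it holds 2.01%, 0.159% and 0.756%.

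Transcript length moved with the difference. Among tested genes that are not members, the median difference was -0.11 for 1392 transcripts under 1000 bases, -0.07 for 2828 of 1000 to 2000 bases, -0.03 for 4772 of 2000 to 4000 bases and 0.01 for 3360 of at least 4000 bases. The members were grouped by coding length instead, 75 to 1257 bases, which leaves out the untranslated ends. Their groups thus cannot be set beside those of the other genes. Within the members the median was -0.25 for 10 genes with under 300 coding bases, -0.19 for 46 genes of 300 to 600 and -0.18 for 22 longer ones. Spearman's rho between coding length and difference was 0.35 over the 78 members, which share libraries and depth. With log values corrected for transcript length in each library, 77 of 78 members were negative (all but Rps2), against 52.1% of all genes. The median was -0.13 against -0.01 over all genes, and 5 were lower at an unadjusted p under 0.05, against 4.77% of all genes. The part of transcript length in the members' difference was not tested.

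**Figure D5:**
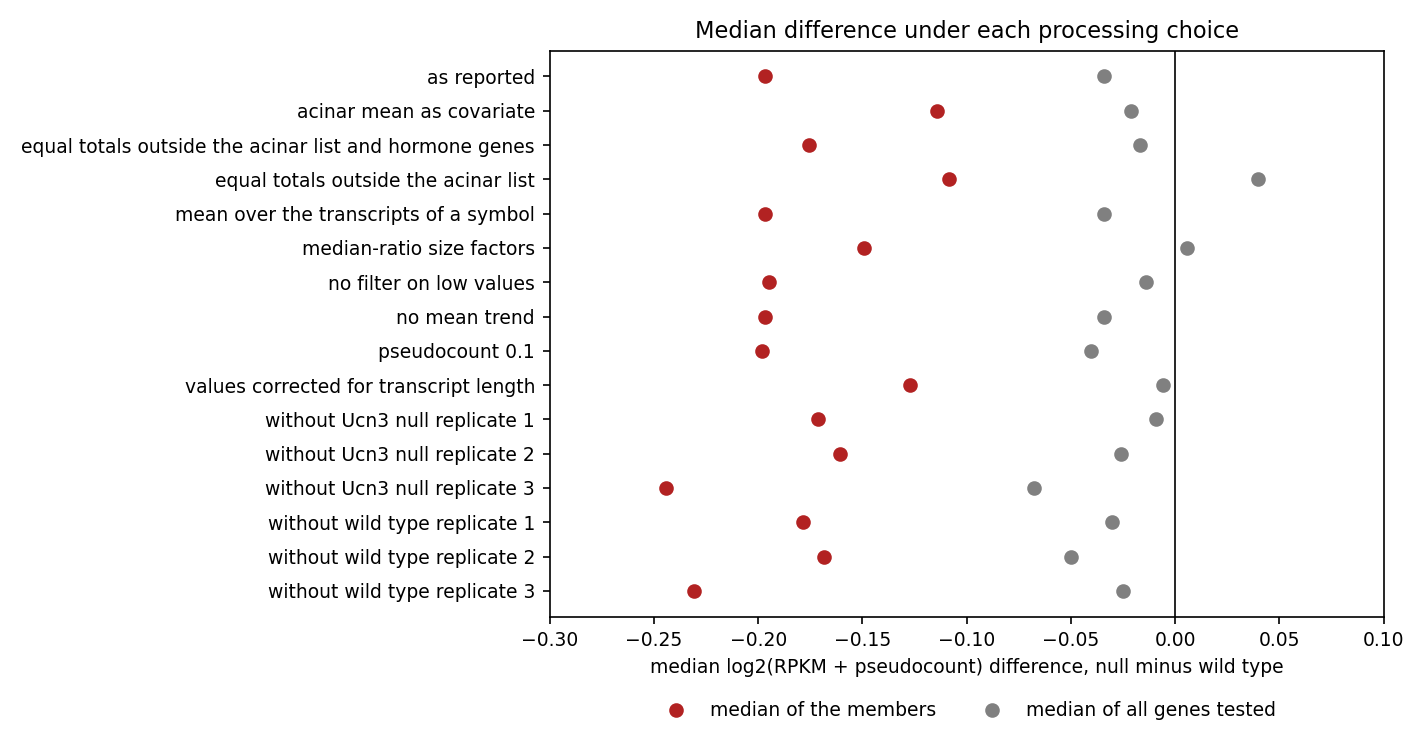
Median difference of the members (red) and of all genes tested (grey), null minus wild type on the log2 scale, for each processing choice named on the left. The members' median stays between -0.24 and -0.11 and lies below that of all genes in each of the 16 fits.

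Depth and labels were checked on the whole table. Low RPKM values lie on steps that stand for single reads, which put the libraries between 42610000 and 51910000 reads, and 74.3% to 75.4% of low values were whole within 0.1 read. Ucn3 itself fell from 149 ± 11.6 RPKM to 1.68 ± 0.10 RPKM (mean ± SD of 3 libraries a group; limma adjusted p = 6.6e-08), so each library matched its label.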

How the data were processed

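RNA of islets from 3 Ucn3 null and 3 wild-type mice was sequenced as 1 TruSeq library per animal, per the labels' protocols. The authors deposited RPKM values, 1 row per RefSeq transcript, per the file headers; the submitters' processing notes name STAR, bedtools, DESeq and the build mm9, without roles. Of 28129 rows, 118 without full values were left out. Per symbol the transcript with the highest mean was kept (10 of 80 members had several rows). Genes averaging at least 1 RPKM were tested on log2(RPKM + 1) with limma 3.58.1 (R 4.3.3); the model held genotype alone, with eBayes and a mean trend, two-sided, Benjamini-Hochberg over 12652 genes, threshold 0.05. The pseudocount understates changes of low genes. The fit was tested on simulated data.

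Members, lists and tests were chosen with earlier results of these data known. Members were named if past the threshold, by p, level, residual SD, paralogy or known role (5 smallest p and 5 highest and lowest levels, 3 largest and smallest SDs), and list genes by p. Rplp2, Rps2, Rpl7a, Rpl8, Rpl17, Rpl28, Rpl29, Rpl31, the pseudogene rows, Eef2, Mtor, Larp1, Mdm2, Cdkn1a and Nkx6-1 fall outside that rule or were named after their values were seen. GENCODE M21 gave lengths (97.5% of rows) and shared 50-base stretches, which, like the promoter and length descriptions, were chosen after seeing the data and took in annotated coding genes and pseudogenes only; Rps3a was matched as Rps3a1. Figures used matplotlib 3.10.9.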

Additional observations from a re-analysis of the deposited data

How the results depend on the processing

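No paired analysis was possible because no replicate number in the labels links animals across genotypes. Over all genes, 2 passed the adjusted threshold, 1 with the acinar covariate or with values corrected for length, 4 without a filter, and 1 to 5 with 1 library left out. Members past it numbered 0 in each of the 16 fits. Members at an unadjusted p under 0.05 numbered 33, where 7.90% of all genes were lower. For the other fits the share of all genes that were lower stands in brackets. There were 0 with the acinar covariate (2.63%) and 4 with equal totals outside the acinar list (2.27%). Equal totals outside acinar and hormone genes gave 31 (6.48%), median-ratio factors 15 (4.61%) and length correction 5 (4.77%). The count was 45 without the mean trend (7.79%) and 39 of 80 without the filter (7.06%). With 1 library left out it ran from 2 without null replicate 2 (2.79%) to 56 without null replicate 3 (9.15%). Over all genes median-ratio factors gave 583 lower and 567 higher and length correction 593 and 390, against 999 and 185. The members' median was -0.114 with the acinar covariate and -0.108 with equal totals outside the acinar list, -0.176 with hormone genes left out too, and -0.244 to -0.161 with 1 library left out. The null to wild-type ratio of the members' share of all RPKM was 0.895; it was 0.820 with the hormone genes and 0.927 with the acinar list left out of the total, and 0.863 to 0.919 with 1 library left out. Of 420 values under alternatives of 28 named genes (27 members and Rpl22l1), 419 kept their direction and stayed short of the threshold. Rpl34 without wild type replicate 1 reversed, at 0.021, within a range of -0.223 to 0.021 with 1 library left out. The 28 do not hold Rps2, Rpl7a, Rpl8 or Rpl28, which were positive in some fits. Rps2 was positive with equal totals outside the acinar list, median-ratio factors or length correction, and without null replicate 3 or wild type replicate 1. Rpl7a was positive with equal totals outside the acinar list, and Rpl7a, Rpl8 and Rpl28 with the acinar covariate. Length correction and equal totals outside acinar and hormone genes were chosen after seeing the data. The standard errors near 0.09 limit what 3 animals a group can show for differences near 0.2.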
